A study of Homo sapiens with 12 samples.

Results

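The sites described here are intron positions of H9 cells, an established line of human embryonic stem cells, that were listed for both FOX2 and TDP43. A site is an intronic position of the second FOX2 wild-type library that also had a listed position within 5 nt, on the same strand, in at least 1 other FOX2 library and in at least 2 of the 4 TDP43 libraries. Positions were kept from the highest count downwards and at least 11 nt apart on a strand, and the 25 to 26 Mb region of chromosome 15, the mitochondrial chromosome and 1 unplaced contig were left out. Of the 90946 intron windows of that library, 375 met the rule. The sites were thus chosen by FOX2 counts and by FOX2 and TDP43 listing, and their FOX2 and TDP43 values are given as descriptions.

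The data are 12 iCLIP libraries, in which ultraviolet light (400 mJ per square centimetre) fixes a protein onto RNA in direct contact with it, an antibody recovers the protein and the cDNA end marks the crosslinked nucleotide. Antibodies against RBFOX2 (FOX2 here), TDP43 and hnRNP M were each used on wild-type (WT) H9 cells and on P-KO cells, which the source label calls SPA PKO, with 2 libraries per protein and genotype. The cells grew on Matrigel in a defined medium or in medium conditioned by mouse fibroblasts, and the labels say neither which medium a library had nor whether the P-KO cells are 1 clone. The series text calls the 2 libraries biological replicates, but no label ties them to separate cultures, so spread between them may be partly technical.

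RBFOX2 is a splicing regulator that recognises UGCAUG-like elements, many of them in introns beside alternative exons, and its position relative to the exon is known to decide whether the exon is included or skipped. TDP43 binds long UG-rich stretches, mostly in introns, and keeps unwanted cryptic exons out of mRNA. hnRNP M, a nuclear protein of the hnRNP family, takes part in splicing and binds RNA rich in G and U. No genome sequence or annotation of hg19 was used here, so the motifs at the sites were not read and no sequence is printed. The Ensembl transcripts that the lists give are not named as genes. The gene lists and stem cell markers chosen for this work could not be applied. The intron label is that of the lists. Whether a site lies in another RNA encoded within the intron was not looked up, so a site need not mark binding to unspliced mRNA precursor.

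Counts at positions closer than 11 nt may repeat one another, so each kept position is treated as a window of 11 nt. Window counts ranged from 58191 to 648651 per library, and the hnRNP M libraries were the shallowest, with 58191 to 123482. The lists hold no position with a count under 2, so "not listed" means below the authors' limits, not absence of binding. Levels are given as CPM, which scales the window counts of each library to a total of 1000000. The plus strand of the left-out region of chromosome 15 separated the genotypes, with 0.915% to 1.63% of window counts in the 6 WT libraries and 0.0530% to 0.160% in the 6 P-KO libraries.

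Libraries with the same replicate number resembled each other across proteins and genotypes. The share of a FOX2 library's intron windows that a TDP43 library also listed was compared over the 16 library pairs, scaled to 100000 TDP43 windows. For each of the 4 FOX2 libraries, both TDP43 libraries of its own number had a higher value than both of the other number. The ratio of the means was 1.40 to 1.58. The FOX2 WT replicate 2 library shared 1.91% and 1.72% of its windows, on this scale, with the TDP43 WT and P-KO libraries numbered 2, and 1.27% and 1.03% with those numbered 1. The labels give no batch, date or litter for these numbers. The number moves with the overlap that defines the shared sites, and its part in each value below was not tested unless values by number are given.

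**Figure D1:**
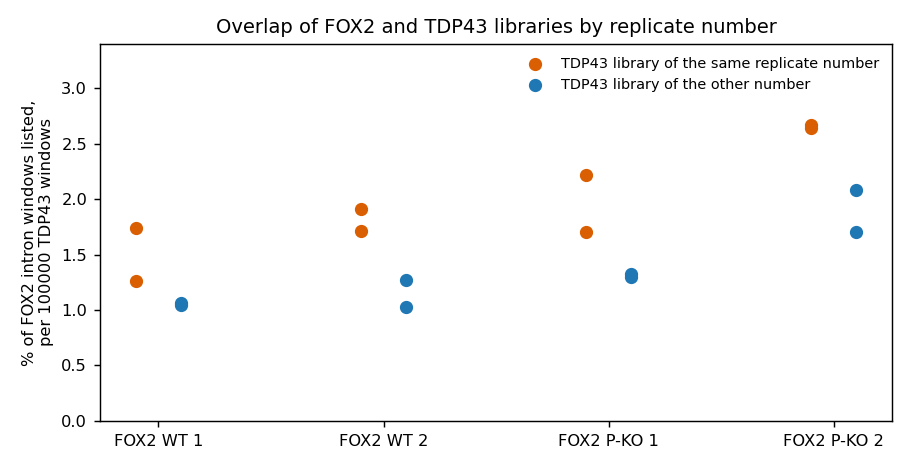
Percent of each FOX2 library's intron windows listed within 5 nt in a TDP43 library, per 100000 windows of that TDP43 library (vertical axis), for the 4 FOX2 libraries (horizontal axis). Each point is 1 of 16 library pairs; in each FOX2 library both orange points (same replicate number) lie above both blue points (other number).

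The rule leaned on the libraries numbered 2. Of the 375 shared sites, 315 were listed in TDP43 WT replicate 2 and 317 in TDP43 P-KO replicate 2, against 218 and 116 in the TDP43 WT and P-KO libraries numbered 1. In 117 sites (31.2%) the TDP43 listing came from the 2 libraries numbered 2 alone, and 258 sites had a listing in at least 1 TDP43 library numbered 1. FOX2 P-KO replicate 2, the deepest library, listed 355 sites and was the sole other FOX2 library at 196. FOX2 WT replicate 1 listed 109 and FOX2 P-KO replicate 1 listed 150. Without FOX2 P-KO replicate 2 the rule gave 179 sites, without TDP43 WT replicate 2 it gave 217 and without TDP43 P-KO replicate 2 it gave 216. With FOX2 WT replicate 1 as the starting library and the rest of the rule kept, 228 of 73485 windows qualified (0.310%, against 0.412% for replicate 2), and 85 of the 228 lay within 5 nt of 1 of the 375 sites. Listing then shifted towards the libraries numbered 1, with 79.4% of the 228 sites listed in TDP43 WT replicate 1 and 49.6% in TDP43 P-KO replicate 1. The TDP43 WT and P-KO libraries numbered 2 listed 67.5% and 68.0%, so TDP43 P-KO replicate 1 stayed below both.

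The sites ran from single faint windows to some of the strongest windows of both proteins. The FOX2 WT replicate 2 count that started the rule had a median of 5 at the shared sites and ranged from 2 to 126. Of the windows with a count of 2 there, 0.0703% were shared sites, against 11.5% of those with 20 to 49 counts and 25.8% (8 of 31) of those with 50 or more. The rule also asks for listing in another FOX2 library, which itself was more frequent at high counts. Windows with such a listing but no TDP43 listing were 3293 of 59755, 171 of 234 and 18 of 31 in these classes. The rise in shared sites is therefore not that of TDP43 listing alone. Listing by the other protein, without that condition, was also more frequent among the highest windows. Of the 100 highest intron windows of TDP43 WT replicate 2, 49 were listed in 2 or more FOX2 libraries, against 1.16% of all 84177. From the FOX2 side the matching figures were 22 of 100 and 0.751%. Sites just inside the rule, with 1 other FOX2 library and 2 TDP43 libraries (n = 126), had a median starting count of 4 and a median highest TDP43 count of 6. Windows just outside it, with at least 1 other FOX2 library and 1 TDP43 library (n = 978), had medians of 4 and 3. Windows listed in 2 or more TDP43 libraries but in no other FOX2 library (n = 309) had medians of 3 and 5.

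Most clusters of shared sites held a single site, and a few held many. With sites no more than 1000 nt apart joined, the 375 sites formed 247 clusters, of which 192 held 1 site, 34 held 2 and 7 held 3. The remaining 14 clusters held 4 to 17 sites each, 94 in all (25.1% of the sites), over spans of 45 to 1681 nt. The sites fell in 204 transcripts, and the 10 transcripts with most sites held 28% of them. FOX2-only sites are windows of the same library listed in another FOX2 library and in no TDP43 library (n = 12619). Another site of the same set lay within 50 nt of 29.1% of shared and 42.4% of FOX2-only sites, and within 1000 nt of 48.8% and 65.3%. Such shares move with the number of sites in a set, so no order is read from them. Chromosome 8 held 57 shared sites (15.2%) but 4.58% of all intron windows of the starting library. Its excess was smaller by cluster, with 22 of 247 clusters (8.91%), though the intron windows were not joined into clusters. The first intron of the transcript named in the list held 28.3% of shared sites, 23.5% of FOX2-only sites and 26.6% of TDP43-only sites (n = 7196, built in the same way from TDP43 WT replicate 2). With 1 shared site per cluster the share was 29.96%, and the other sets were not reduced in this way. The fullest stretches of 10 kb were on chromosome 8, where 1 cluster of 17 sites spanned 452500 to 454180 on the minus strand, and on chromosome 1 (16 and 11 sites, at the groups described further on), chromosome 15 (7) and chromosome 3 (6). Sites of a cluster share their RNA and are not independent, and the shares are given without a test.

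The group with most sites on chromosome 1 lay in intron 33 of ENST00000379370.2, with 16 sites between 987427 and 988937 on the plus strand (hg19). It was a FOX2-weighted group. Here and below, counts of a protein and genotype are given for replicate 1 and then replicate 2. Summed over the 16 sites, FOX2 had 288 and 710 counts (WT) and 798 and 2390 (P-KO), and TDP43 had 154 and 248 (WT) and 32 and 270 (P-KO). Windows of neighbouring sites in different libraries can overlap by a few nucleotides, so such sums may count some cDNAs more than once. The balance of the proteins was not the same along the intron. At the strongest FOX2 site of the group, 988622, FOX2 had 52 and 93 counts (WT) and 131 and 309 (P-KO), and TDP43 had 17 and 18 (WT) and 0 and 12 (P-KO). At 988428, 194 nt away and the strongest TDP43 site of the group, FOX2 had 25 and 54 counts (WT) and 50 and 199 (P-KO), while TDP43 had 29 and 37 (WT) and 7 and 48 (P-KO). The FOX2 level exceeded the TDP43 level by 4.12 on the log2(CPM + 1) scale at the first site and by 0.877 at the second. At 987966 in the same group the direction of the mean turned. TDP43 had 12 and 53 counts (WT) and 7 and 35 (P-KO) there, and FOX2 had 0 and 23 (WT) and 0 and 94 (P-KO). The FOX2 minus TDP43 difference there was -3.05, the lowest of the 16 sites, and the highest was 5.51. The -3.05 includes FOX2 entered at 0 in both libraries numbered 1, which did not list the site. In the libraries numbered 2, FOX2 and TDP43 had 79.7 and 187 CPM (WT) and 145 and 120 CPM (P-KO). FOX2 was thus the higher in P-KO replicate 2.

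A compact group on chromosome 3 was weighted the other way. It held 6 sites over 125 nt, from 160232780 to 160232904 on the minus strand, in intron 3 of ENST00000483437.1, and TDP43 was higher at each of the 6. The highest TDP43 level among sites listed in all 8 FOX2 and TDP43 libraries was at 160232889. There TDP43 had 285 and 197 counts (WT) and 62 and 229 (P-KO), and FOX2 had 32 and 18 (WT) and 45 and 77 (P-KO). The mean log2(CPM + 1) was 9.49 ± 0.792 (SD, n = 4) for TDP43 and 6.92 ± 0.689 (SD, n = 4) for FOX2, and the 2 sets of libraries did not overlap at this site in CPM. In this group both proteins had their highest mean level at the same site. Over the 14 groups of 4 or more sites, this was so in 7, and the distance between the top sites had a median of 16.5 nt and reached 734 nt.

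**Figure D2:**
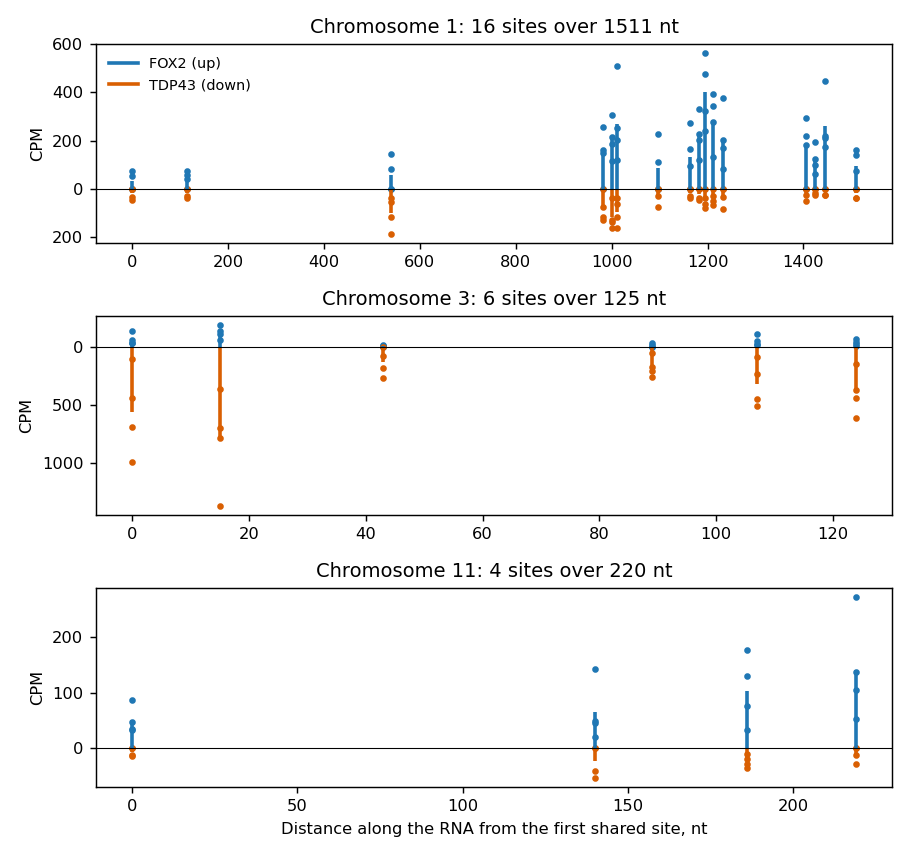
CPM of FOX2 (blue, upward) and TDP43 (orange, downward) at the shared sites of 3 groups on chromosomes 1, 3 and 11, against the distance in nt along the RNA from the first shared site. Lines end at the mean of 4 libraries and points are single libraries; the chromosome 1 and 11 groups are weighted to FOX2 and the chromosome 3 group to TDP43.

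Across the shared sites the 2 proteins were not balanced in a fixed ratio. The mean log2(CPM + 1) of FOX2 minus that of TDP43, over 4 libraries each, had a median of -0.146 and ranged from -6.37 to 6.26. FOX2 was higher by more than 1 at 93 sites, TDP43 by more than 1 at 105, and the other 177 lay within 1. Across the 375 sites Spearman's rho between the levels of the proteins was 0.124 and Pearson's r was 0.160, which describes these points only, since sites share libraries, clusters and the listing rule. Within 1 protein the libraries themselves spread with a mean SD of 2.24 on this scale, with libraries that did not list a site entered at 0, so a difference of 1 at a single site lies within the spread.

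Sites listed in nearly all libraries allowed the direction to be set side by side by replicate number. There were 49 sites listed in at least 7 of the 8 FOX2 and TDP43 libraries, in 28 clusters, with FOX2 higher at 28 and TDP43 higher at 21. At 41 of the 49 the direction was the same among the libraries numbered 1 as among those numbered 2. The highest FOX2 weighting was at 63357484 on the plus strand of chromosome 15, where FOX2 had 87 and 105 counts (WT) and 134 and 334 (P-KO), and TDP43 had 8 and 5 (WT) and 0 and 3 (P-KO). Its FOX2 minus TDP43 difference was 5.58, with 6.26 among the libraries numbered 1 and 4.90 among those numbered 2. The next FOX2-weighted sites by this measure were 7526174 on chromosome 5 (4.38), 988622 and 988638 in the chromosome 1 group (4.12 and 3.85) and 139784443 on chromosome 9 (3.71), all on the plus strand.

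Among the same 49 sites, TDP43 weighting was highest at 98479393 on the plus strand of chromosome 7. TDP43 had 144 and 105 counts (WT) and 26 and 92 (P-KO), and FOX2 had 6 and 8 (WT) and 0 and 17 (P-KO). The difference was -4.77, with -5.93 and -3.62 among the libraries numbered 1 and 2. It was followed by 2 sites of the chromosome 3 group, 160232780 (-3.20) and 160232904 (-2.69), and by 128861886 (-2.75) and 128862042 (-2.63) on the plus strand of chromosome 8. Every TDP43 library had a higher CPM than every FOX2 library at 98479393.

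**Figure D3:**
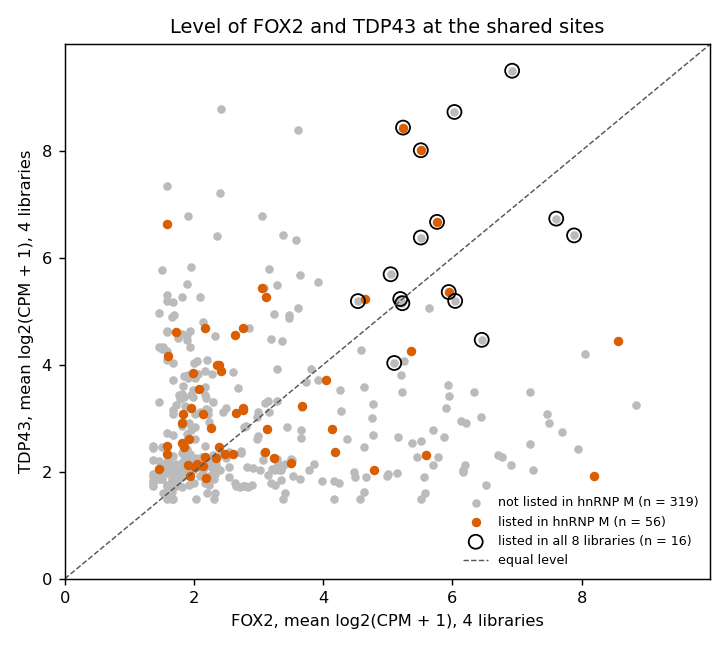
Mean log2(CPM + 1) over 4 libraries of FOX2 (horizontal axis) and TDP43 (vertical axis) at the 375 shared sites; the dashed line marks equal level. Orange points (n = 56) were also listed in an hnRNP M library and circles mark the 16 sites listed in all 8 FOX2 and TDP43 libraries, which lie on both sides of the line.

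All 8 FOX2 and TDP43 libraries listed 16 sites (4.27%), in 12 clusters and 12 transcripts, and no shared site was listed in all 12 libraries. FOX2 was higher at 7 of the 16 and TDP43 at 9, with 9 of the 16 differences within 1. After the chromosome 3 group and the pair at 988428 and 988439 on chromosome 1, the highest mean level was at 180949521 on the plus strand of chromosome 3. FOX2 had 4 and 35 counts (WT) and 7 and 76 (P-KO), TDP43 had 21 and 77 (WT) and 3 and 61 (P-KO), and hnRNP M had 0 and 11 in WT and 0 in both P-KO libraries. For FOX2 and TDP43, in both genotypes, the library numbered 2 had the higher CPM at this site. At 38280064 on chromosome 8, minus strand, there were 8 and 19 FOX2 counts (WT) and 6 and 41 (P-KO), and 21 and 40 TDP43 counts (WT) and 3 and 52 (P-KO). The remaining sites named by the rule were 63353326 on the plus strand of chromosome 15 and 452519 on the minus strand of chromosome 8, where the protein differences of 0.584 and 0.851 were smaller than the SD within either protein at the first site (1.10 and 1.14) and within TDP43 at the second (1.04).

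hnRNP M, whose lists the rule did not use, was listed at a larger share of shared sites than of sites of either protein alone in 3 of its 4 libraries, a difference that 4 libraries are too few to test at 0.05. At least 1 hnRNP M library listed 56 of the 375 shared sites (14.9%), against 1.64% of FOX2-only sites, 1.61% of TDP43-only sites and 0.778% of all intron windows of the starting library. By library, hnRNP M WT replicate 2 listed 12.8% of shared sites (95% Clopper-Pearson interval 9.59 to 16.6) and 1.09% of FOX2-only sites, and hnRNP M P-KO replicate 2 listed 4% (2.26 to 6.51) and 0.396%. hnRNP M P-KO replicate 1 listed 0.8% (0.165 to 2.32) and 0.166%, and hnRNP M WT replicate 1 listed none of the 375 (upper bound 0.979) and 0.0555%. The intervals cover counting error only and treat neighbouring sites as independent.

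The difference between shared and FOX2-only sites averaged 3.97 ± 5.40 percentage points (SD, n = 4 libraries) and was positive in 3 of 4. The exact sign-flip permutation test, two-sided, gave p = 0.25, where the smallest possible is 0.125. The size rested on hnRNP M WT replicate 2, without which the mean was 1.39. The order followed the number of listed windows, 32394 windows in hnRNP M WT replicate 2, 11471 in P-KO replicate 2, 7887 in P-KO replicate 1 and 7299 in WT replicate 1, and the replicate number. It did not follow the window counts, which were lowest, 58191, in P-KO replicate 2. Weighting FOX2-only sites to the same FOX2 WT replicate 2 counts as the shared sites gave a mean difference of 3.77, with 12.8% against 1.64% in hnRNP M WT replicate 2. The weighting matched the count of that FOX2 library only. By rule the shared sites were listed for both proteins and the FOX2-only sites in no TDP43 library. Neither the number of libraries that listed a site nor the level of its RNA was matched, and their part in the difference was not tested. The gap was not even over counts. At least 1 hnRNP M library listed 7.14% of shared and 0.850% of FOX2-only sites with 2 counts. These shares were 10.2% and 1.85% with 3 to 4 counts, and 17.4% and 1.80% with 5 to 9. The gap was widest with 10 to 19 counts, at 33.3% (13 of 39) and 1.69%. Those 13 include neighbouring sites of the chromosome 1 group described below. At 20 to 49 counts these were 7.41% (2 of 27) and 5.85%, and at 50 or more 25% (2 of 8) and 16.7% (3 of 18). Among the 258 shared sites with a TDP43 listing numbered 1, hnRNP M WT replicate 2 listed 11.2% and P-KO replicate 2 listed 3.10%. Among the 117 with TDP43 listings numbered 2 alone it was 16.2% and 5.98%. The difference was 3.83 with 1 shared site per cluster, where all FOX2-only sites were kept. It was 1.31 when the hnRNP M position had to be the same nucleotide.

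**Figure D4:**
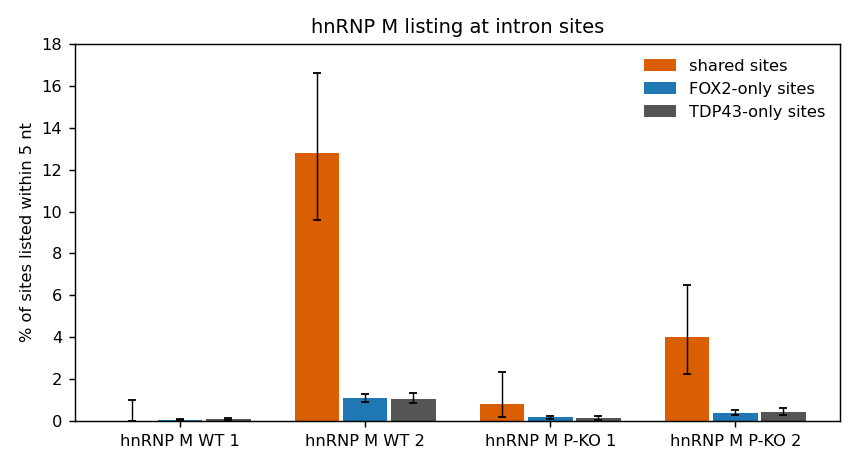
Percent of shared sites (n = 375), FOX2-only sites (n = 12619) and TDP43-only sites (n = 7196) with a position listed within 5 nt in each hnRNP M library; error bars are 95% Clopper-Pearson intervals. In hnRNP M WT replicate 2 the values are 12.8%, 1.09% and 1.07%.

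The 56 sites lay in 42 clusters, 53 of them were listed in hnRNP M libraries numbered 2 alone, and 9 in both of those. hnRNP M was listed at 8.60% of the 93 FOX2-weighted sites, 17.1% of the 105 TDP43-weighted sites and 16.9% of the 177 between. The fullest hnRNP M group lay on chromosome 1, plus strand, in introns that the lists assign mainly to ENST00000398958.2. hnRNP M was listed there at 7 of 7 shared sites from 28833876 to 28833987 and at 3 of 4 from 28835069 to 28835215. At 28833876 hnRNP M had 0 and 29 counts (WT) and 0 and 5 (P-KO). FOX2 had 0 and 13 (WT) and 0 and 21 (P-KO) there, and TDP43 had 0 and 17 (WT) and 0 and 26 (P-KO). In each of the 6 pairs of libraries at this site, the library numbered 2 was listed and the library numbered 1 was not.

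The highest summed hnRNP M CPM of the 56 sites was not in that group but at 15262777 on the plus strand of chromosome 6, in intron 1 of ENST00000341776.2, the transcript with most shared sites (19 in 11 clusters). hnRNP M had 0 and 10 counts (WT) and 0 and 21 (P-KO). FOX2 had 5 and 12 (WT) and 4 and 13 (P-KO), and TDP43 had 15 and 49 (WT) and 0 and 46 (P-KO). FOX2 was thus listed under both replicate numbers at this site and hnRNP M under 1 of them.

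P-KO cells were then compared with WT cells at the shared sites. FOX2 was left out, since each site had to be listed in a FOX2 WT library. The rule takes TDP43 listings of both genotypes alike, but it does use them, so the TDP43 fit is given as a description and nothing is read from its count. The sites of all 12 libraries were tested together, and 120 of the 375 shared sites were among the 2199 sites that passed the filter on low counts. For TDP43, 0 of the 120 passed in edgeR's quasi-likelihood test (Benjamini-Hochberg adjusted p of 1.00 for each), and 0% of all sites tested passed. By unadjusted p under 0.05, 3 of the 120 and 38 of the 2199 were counted. DESeq2 called none and had 0 of the 120 by that measure. The hnRNP M lists were not used by the rule, but the sites passed the filter through FOX2 and TDP43 counts. Of the 120, 92 were unlisted in all 4 hnRNP M libraries and could not pass a test of hnRNP M or of its difference from TDP43. For hnRNP M, 0 of the other 28 passed in edgeR (0% of all sites), with 0 of the 28 and 30 of the 2199 at an unadjusted p under 0.05 and 0 calls by DESeq2. The genotype effect of TDP43 differed from that of hnRNP M at 0 of the 28 in edgeR (0% of all sites), 0 had an unadjusted p under 0.05, and none was called by DESeq2. That comparison also uses the TDP43 counts, so it too is given as a description and nothing is read from its count. With 2 libraries a group and a biological coefficient of variation of 1.29, these counts do not show that the genotypes were alike.

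The 3 shared sites of smallest p for TDP43 did not pass. Each was listed in 2 TDP43 libraries, the fewest the rule allows, both of 1 genotype. The rule used these listings, so the TDP43 p-values below are descriptions and nothing is read from them. At 988852 on chromosome 1, TDP43 had 6 and 5 counts in WT and was not listed in P-KO (edgeR unadjusted p = 0.00687, adjusted p = 1.00). At 988609, also in the chromosome 1 group, it had 8 and 14 in WT and was not listed in P-KO (edgeR unadjusted p = 0.00734, adjusted p = 1.00). At 3405988 on the plus strand of chromosome 11 it was not listed in WT and had 2 and 8 in P-KO (edgeR unadjusted p = 0.00702, adjusted p = 1.00). The first and the last of these sites rested on counts of 2 to 8, where the lists start at 2. At a distance of 13 nt from 988609, at 988622, TDP43 was listed in both genotypes. For hnRNP M the 3 of smallest p were 63353326 on chromosome 15 and 180949521 and 160232780 on chromosome 3, each listed in hnRNP M WT replicate 2 alone, with 4, 11 and 3 counts (edgeR unadjusted p = 0.0889, 0.0894 and 0.0919, adjusted p = 1.00 for each).

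Summed over the 375 sites, TDP43 had 11560 and 15421 CPM (WT) and 4102 and 14982 (P-KO). The P-KO library numbered 1 was the low one, and within the libraries numbered 2 the genotypes differed by less than the 2 WT libraries did. Among the 120 tested sites the median fitted log2 fold change for TDP43, P-KO over WT, was -0.280, beside 0 over all sites tested. With the TDP43 libraries fitted alone, the median was -0.323 over the 79 shared sites then tested and -0.322 over all 948 sites. The shared sites thus did not stand apart from the other sites in that fit. In the fit of all proteins, the shared-site median was -4.00 without TDP43 P-KO replicate 2 and 0.446 without TDP43 P-KO replicate 1. Without TDP43 WT replicate 2 it was 0.767, each over the sites then tested. Fitted changes of sites unlisted in a whole group depend on the prior count of the fit, so the size of these medians is no bound. The direction of this median therefore depended on single libraries. FOX2 had 4951 and 11406 CPM (WT) and 11207 and 14137 (P-KO), where the second value was that of the library that started the rule. hnRNP M had 0 and 3895 CPM (WT) and 484 and 1392 (P-KO), and for each of the 3 proteins the ranges of the genotypes overlapped. Within replicate numbers, P-KO was below WT in both pairs for TDP43 and above it in both for FOX2, and the pairs went opposite ways for hnRNP M. With 2 pairs these directions were not tested.

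**Figure D5:**
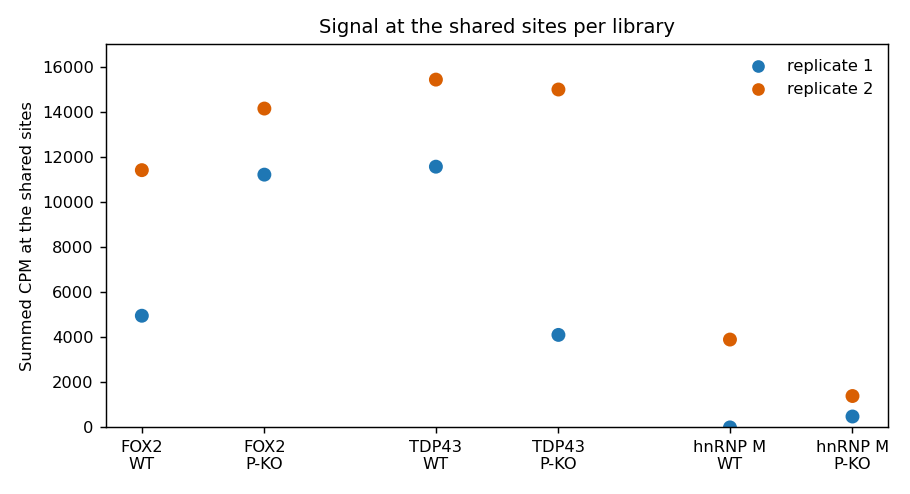
Summed CPM at the 375 shared sites in each of the 12 libraries, by protein and genotype, with replicate 1 in blue and replicate 2 in orange. In each of the 6 groups the library numbered 2 is the higher one, and for TDP43 the WT values (11560 and 15421) and P-KO values (4102 and 14982) overlap.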

How the data were processed

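The authors deposited 1 list per library, in which each line is 1 nucleotide with a transcript, a strand, a whole-number count that is not normalized and a significance value of at most 0.05, given as a p-value or else a q-value. The submitters' processing notes name Bowtie and GRCh37 (hg19); neither the peak caller nor the kind of count (reads or barcode-collapsed cDNAs) is stated, these being not given in the sources used here.

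Sites were matched within 5 nt and given the highest count listed there. The test table held 637245 sites of all libraries, with the candidate windows placed first. edgeR 4.0.16 (R 4.3.3) was run with filterByExpr, TMM, 6 group means and the quasi-likelihood F test at default settings. The outcome of its run on simulated counts is not reported here, so the size of change it could detect is not given. DESeq2 1.42.0 with poscounts size factors was an alternative. Other steps used Python 3.11.15 and scipy 1.17.1. Same-numbered libraries deviated together: the replicate 1 minus 2 differences of log CPM correlated at 0.179 to 0.638 in the 15 pairs of groups over the 2199 tested sites. The main edgeR and DESeq2 fits had no term for the replicate number. It was treated as pairing the libraries only in the replicate block alternative and where values are set side by side by number. That pairing comes from the data, not the labels.

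Sites were named by rule: the 10 highest listed in all 8 FOX2 and TDP43 libraries, sites listed in all 12, the 3 of smallest p where none passed, the 5 most weighted to each protein among sites listed in at least 7 of 8, and the fullest transcripts and bins. The sites at 987966, 15262777 and 28833876 were singled out after their values were seen. The members and lists were chosen with earlier results of these data known.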

Additional observations from a re-analysis of the deposited data

How the results depend on the processing

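The number of shared sites depended on the rule: 98 when positions had to match at the same nucleotide, 110 with counts of at least 5, 228 from FOX2 WT replicate 1 and 16 when all 8 FOX2 and TDP43 libraries had to list the site. Leaving out 1 of the 7 other libraries gave 179 to 371. It was 528 with a match within 10 nt, 327 with positions 21 nt apart and 258 with a TDP43 library numbered 1 required; the last setting and the omissions were added after seeing the data. The mean hnRNP M difference kept its sign in 11 alternatives, 3 of them added after seeing the data, from 1.31 to 5.32 percentage points (1.39 to 5.32 with 1 hnRNP M library left out), with exact permutation p from 0.125 to 0.5. The genotype tests called 0 shared sites in each alternative run, including the replicate block, which uses the pairing of the numbers and changed no call. Most tested sites had no hnRNP M count, and zeros from 2 libraries a group say nothing about stability. The smallest adjusted p in the alternatives was 0.400, for hnRNP M in 10 kb bins, where 44 of 231 bins holding a shared site and 1199 of 10563 bins had an unadjusted p under 0.05 in edgeR and 5 of all bins, none with a shared site, were called. With the hnRNP M libraries alone no shared site passed the filter, so that setting gave no value. Depth limits the hnRNP M comparison, where 1 count was 8.10 CPM in the deepest hnRNP M library and 17.2 in the shallowest.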
